A study of Mus musculus with 9 samples.

Results

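The synaptonemal complex and meiotic cohesin genes examined here are 10 genes, Sycp1, Sycp2, Sycp3, Syce1, Smc1b, Rec8, Stag3, Dmc1, Hormad1 and Tex11, among the 54913 loci with an RNA level in every library. Each gene was located in the deposited table by its GRCm38 coordinates and strand, and where several loci lay within a gene the one with the highest mean level was used. All 10 genes had such a locus. RNA was sequenced from 9 libraries, 3 of each cell type. SSC are spermatogonial stem cells at passage 0, selected with magnetic beads for the surface receptor Gfra1 from the testes of mouse pups in the days after birth. SSCiPSC are induced pluripotent stem cells (iPSC) made from such SSC, and fiPSC are iPSC made from male fetal fibroblasts, both at passage 10 to 11 by the labels, whereas the study's methods give a later passage. All groups come from a single strain with the reverse transactivator rtTA*M2 at the Rosa26 locus (Gt(ROSA)26Sor) and, at Col1a1, a tetO cassette of Pou5f1, Sox2, Klf4 and Myc, which doxycycline switches on. By the study's methods iPSC lines were grown from picked colonies and were weaned from doxycycline, whereas the labels name medium with doxycycline and LIF for every sample. The methods also state that iPSC were purified with magnetic beads for SSEA1, to limit feeder cells, before expression was measured. The labels do not say whether libraries of a group came from separate animals or cultures, so p-values measure only the spread between these libraries. The starting fibroblasts were not analysed here.

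Cohesin is a ring of 2 SMC proteins closed by a kleisin subunit, with a STAG subunit bound to it, and it holds sister chromatids together. In meiosis, Smc1b replaces Smc1a, Rec8 or Rad21l replaces the kleisin Rad21, and Stag3 replaces Stag1 and Stag2. The meiotic rings form the chromosome axis together with Sycp2, Sycp3 and Hormad1. Sycp1 fibres and central element proteins such as Syce1 then zip the axes of paired homologous chromosomes together, while the recombinase Dmc1 pairs broken DNA with the homologue. Outside the germ line such genes are known to be held silent by promoter DNA methylation and by a variant Polycomb complex that contains Pcgf6, L3mbtl2 and E2f6 and reads CACGTG through Mga and Max and GGCGGGA through E2f6.

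Against SSC, the iPSC of either origin had lower RNA of Sycp1, Sycp2, Sycp3 and Tex11 and higher RNA of Dmc1 and Hormad1. The widest differences were those of Sycp2, with a mean in SSC 46.1 times that in SSCiPSC and 53.7 times that in fiPSC, and of Dmc1, with a mean in SSCiPSC 5.53 times that in SSC. None of the 10 genes differed between SSCiPSC and fiPSC past an adjusted p of 0.05 in limma.

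The upstream sequences of 4 of the genes are shown because they hold the widest fall (Sycp2), the widest rise (Dmc1) and 2 genes with paired CACGTG motifs that moved in opposite directions (Sycp3 and Hormad1). Each is the 250 bases before a RefSeq transcription start (GRCm38.p6), written 5′ to 3′ on the strand of the gene, with CG pairs and CACGTG in capitals. Sycp2 lies at chr2:178407659-178407908 on the minus strand, Dmc1 at chr15:79605110-79605359 on the minus strand, Sycp3 at chr10:88459337-88459586 on the plus strand and Hormad1 at chr3:95559427-95559676 on the plus strand.
Sycp2: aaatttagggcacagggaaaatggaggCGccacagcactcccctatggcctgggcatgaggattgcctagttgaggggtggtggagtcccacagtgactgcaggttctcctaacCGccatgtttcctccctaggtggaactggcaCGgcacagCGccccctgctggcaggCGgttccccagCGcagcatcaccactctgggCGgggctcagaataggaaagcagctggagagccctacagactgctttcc
Dmc1: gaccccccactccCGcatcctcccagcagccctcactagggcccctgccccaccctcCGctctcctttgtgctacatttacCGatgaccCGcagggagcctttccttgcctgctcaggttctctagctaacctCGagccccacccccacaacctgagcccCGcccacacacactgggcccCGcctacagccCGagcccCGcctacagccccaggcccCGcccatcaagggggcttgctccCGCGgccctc
Sycp3: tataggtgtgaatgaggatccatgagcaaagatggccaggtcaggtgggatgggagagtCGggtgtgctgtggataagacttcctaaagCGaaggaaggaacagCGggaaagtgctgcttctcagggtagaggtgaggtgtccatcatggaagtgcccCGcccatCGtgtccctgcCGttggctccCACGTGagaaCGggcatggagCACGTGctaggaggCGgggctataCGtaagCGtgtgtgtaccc
Hormad1: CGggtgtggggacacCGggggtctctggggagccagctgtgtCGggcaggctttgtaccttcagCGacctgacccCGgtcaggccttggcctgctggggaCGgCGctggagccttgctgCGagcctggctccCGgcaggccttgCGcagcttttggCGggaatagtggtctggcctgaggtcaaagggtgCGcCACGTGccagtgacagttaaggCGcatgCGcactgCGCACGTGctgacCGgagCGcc

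The 4 sequences hold 7 CG pairs in Sycp2, 12 in Dmc1, 12 in Sycp3 and 19 in Hormad1. RefSeq promoters were matched by symbol for 9 of the 10 genes, with Tex11 without an entry, and these held 7 to 26 CG pairs, with a median of 13 against a median of 6 over all 32851 mouse promoters of the same length. CACGTG, which reads the same on both strands, was found in 4 of the 9 (Sycp1, Sycp3, Stag3 and Hormad1), against 6.02% of all promoters. The RefSeq start of Stag3 lies 269 bases inside the gene as GENCODE places it, so its window lies within that gene. In Sycp3 the motifs began 64 and 43 bases before the start, and in Hormad1 57 and 20 bases before it. GGCGGGA, searched on both strands, was found in 1 of the 9, Hormad1, against 9.75% of all promoters. The motif set therefore held genes that were lower in iPSC (Sycp1 and Sycp3) as well as a gene that was higher (Hormad1), and Stag3, which did not pass in SSCiPSC and was called lower in fiPSC. A match of letters is a description and not a binding site.

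Values are FPKM, fragment numbers scaled by transcript length and by library depth, so that levels of different genes can be set side by side per length. Depth differed between the cell types. In units of 1000000 fragments the estimate was 1.77, 4.62 and 1.38 for the respective SSC libraries, 15.8, 13.7 and 15.0 for SSCiPSC and 13.3, 17.6 and 15.4 for fiPSC. A single fragment on a kilobase of transcript was thus worth from 0.216 to 0.723 FPKM in the SSC libraries and no more than 0.0754 in any iPSC library. The lower precision of the SSC values bears most on the genes of low level there, Rec8, Dmc1 and Hormad1. The Rec8 values of SSC replicates 1, 2 and 3 rest on about 7.74, 38.4 and 14.4 fragments.

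**Figure D1:**
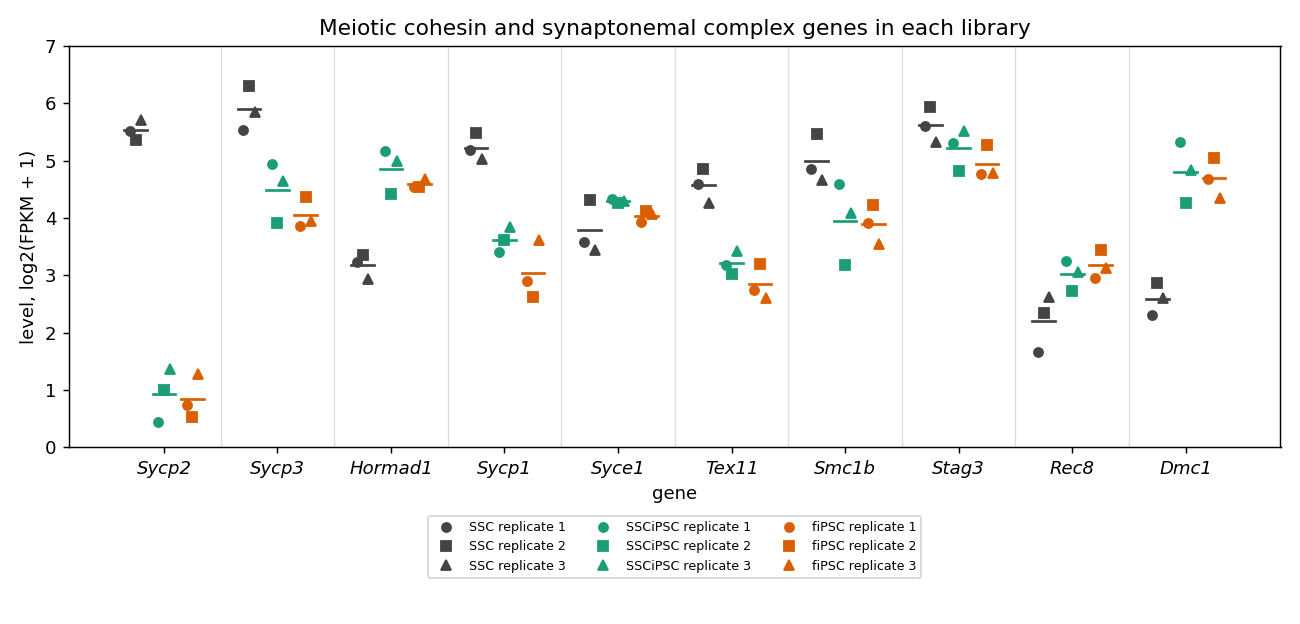
RNA level of the 10 genes in each library, as log2(FPKM + 1) on the vertical axis, with genes along the horizontal axis. Symbols mark replicates 1, 2 and 3, colours mark SSC, SSCiPSC and fiPSC, and bars mark group means of the plotted values. SSC points lie above all iPSC points for Sycp2, Sycp3, Sycp1, Tex11 and Smc1b and below them for Hormad1, Rec8 and Dmc1.

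Sycp2, on the minus strand at chr2:178345293-178407685, encodes an axis protein on which the lateral elements are built. Replicates 1, 2 and 3 of SSC, in that order here and for the genes that follow, had 44.8, 40.1 and 51.1 FPKM. In SSCiPSC it was 0.352, 1.01 and 1.59 FPKM, and in fiPSC 0.67, 0.44 and 1.42 FPKM. Every iPSC library lay far below every SSC library, and the iPSC groups overlapped. On the log2(FPKM + 1) scale SSCiPSC differed from SSC by −4.59 (SE 0.28, limma adjusted p = 0.000109). The ratio of the SSC mean to the iPSC mean rests on iPSC levels near 1 FPKM or below, and with single iPSC libraries left out it ran from 34.9 to 66.4 for SSCiPSC and from 43.3 to 81.7 for fiPSC, highest without fiPSC replicate 3. Sycp2 was the lowest of the 10 genes in both kinds of iPSC and the third highest in SSC.

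Sycp3, on the plus strand at chr10:88459569-88473236, encodes the partner of Sycp2 in the lateral element. It stood at 45.6, 78.3 and 56.8 FPKM in SSC. SSCiPSC had 29.7, 14.0 and 24.0 FPKM, and fiPSC had 13.5, 19.7 and 14.4 FPKM. The SSC libraries were all above the iPSC libraries. The log2 difference was −1.41 (SE 0.32, adjusted p = 0.0107) for SSCiPSC against SSC. The interval of the Sycp3 locus, chr10:88452955-88503820, is shared with Chpt1 on the minus strand, whose locus was also lower in SSCiPSC, with a log2 difference of −0.97 (adjusted p = 0.0082), and a part of the reads of one gene in the value of the other was not tested. A second plus-strand locus with the same interval was lower too, with a log2 difference of −1.25 (adjusted p = 0.0084). The coordinates do not tell which plus-strand locus is Sycp3, and the one with the higher mean was used.

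Hormad1, on the plus strand at chr3:95559677-95587671, encodes a HORMA domain protein of unsynapsed axes. Its locus covered 74% of the gene and stood at 8.39, 9.21 and 6.68 FPKM in SSC. SSCiPSC had 35.0, 20.3 and 31.0 FPKM, and fiPSC had 22.3, 22.2 and 24.8 FPKM. The iPSC libraries all lay above the SSC libraries, the opposite order to its axis partners Sycp2 and Sycp3. The log2 difference of SSCiPSC from SSC was 1.69 (SE 0.25, adjusted p = 0.00175), a ratio of means of 3.55. A second Hormad1 locus at the 3′ end rose as well, with a log2 difference of 2.41 (adjusted p = 0.031).

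Sycp1, on the minus strand at chr3:102818499-102936100, encodes the transverse filament. Its level was 35.3, 43.5 and 31.6 FPKM in SSC. It was 9.59, 11.3 and 13.3 FPKM in SSCiPSC and 6.45, 5.16 and 11.3 FPKM in fiPSC. SSC libraries were all above iPSC libraries, and fiPSC replicate 3 lay among the SSCiPSC values. The log2 difference was −1.60 (SE 0.19, adjusted p = 0.000787) for SSCiPSC against SSC. A second Sycp1 locus, at the 5′ end of the gene, was lower too, with a log2 difference of −1.43 (adjusted p = 0.0106).

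Syce1, on the minus strand at chr7:140777229-140787852, encodes a central element protein that lies on the Sycp1 fibres. It had 11.0, 18.9 and 9.91 FPKM in SSC, 19.2, 18.3 and 18.6 FPKM in SSCiPSC and 14.3, 16.3 and 15.8 FPKM in fiPSC. SSC replicate 2 fell among the SSCiPSC values, and the remaining SSC libraries lay below every iPSC library. The log2 difference of SSCiPSC from SSC was 0.51 (95% interval −0.09 to 1.12, adjusted p = 0.136) and did not pass the test, although it passed once SSC replicate 2 was left out. Tex11, on the minus strand at chrX:100838648-101059667, encodes a protein needed for crossovers and synapsis in males. It had 23.3, 27.9 and 18.1 FPKM in SSC, 8.11, 7.14 and 9.70 FPKM in SSCiPSC and 5.71, 8.23 and 5.10 FPKM in fiPSC. No iPSC library reached the lowest SSC library. The log2 difference was −1.36 (SE 0.21, adjusted p = 0.00241) for SSCiPSC against SSC.

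Smc1b, on the minus strand at chr15:85064689-85131964, is the meiotic SMC subunit and had 27.8, 43.3 and 24.3 FPKM in SSC. In SSCiPSC it had 23.0, 8.09 and 15.9 FPKM and in fiPSC 14.1, 17.7 and 10.7 FPKM. Every SSC library lay above every iPSC library, but SSCiPSC replicates 1 and 2 differed by more than the gap between the nearest SSC and SSCiPSC libraries. The log2 difference from SSC was −1.04 in SSCiPSC (SE 0.40, adjusted p = 0.0676), short of the threshold, and −1.10 in fiPSC (SE 0.27, adjusted p = 0.0155). The fiPSC call was lost without fiPSC replicate 1 (adjusted p = 0.0543) or replicate 3 (adjusted p = 0.0565).

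Stag3, on the plus strand at chr5:138280240-138312393, is the meiotic STAG subunit and was the most abundant of the 10 genes in both kinds of iPSC. It had 47.8, 60.1 and 39.3 FPKM in SSC, 38.5, 27.2 and 45.0 FPKM in SSCiPSC and 26.3, 37.6 and 26.7 FPKM in fiPSC. SSC and SSCiPSC overlapped, and fiPSC libraries all lay below SSC libraries. The log2 difference from SSC was −0.41 in SSCiPSC (SE 0.24, adjusted p = 0.203) and −0.68 in fiPSC (SE 0.21, adjusted p = 0.0354). The fiPSC call was lost in 6 of the alternative settings.

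Rec8, on the plus strand at chr14:55618037-55625395, is the meiotic kleisin and was the least abundant of the 10 genes in SSC. It had 2.16, 4.10 and 5.14 FPKM in SSC, 8.53, 5.65 and 7.34 FPKM in SSCiPSC and 6.78, 9.85 and 7.79 FPKM in fiPSC. Every iPSC library was above every SSC library, though SSC replicate 3 lay close to SSCiPSC replicate 2. The log2 difference from SSC was 0.81 in SSCiPSC (SE 0.32, adjusted p = 0.0772), which missed the threshold, and 0.97 in fiPSC (SE 0.30, adjusted p = 0.0364). The fiPSC call was lost in 4 of the alternative settings.

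Dmc1, on the minus strand at chr15:79561497-79605109, is the meiotic recombinase. It had 3.95, 6.28 and 5.08 FPKM in SSC, 39.1, 18.1 and 27.5 FPKM in SSCiPSC and 24.8, 31.9 and 19.3 FPKM in fiPSC. The lowest iPSC library lay above the highest SSC library, and both kinds of iPSC covered much the same range. The log2 difference of SSCiPSC from SSC was 2.21 (SE 0.31, adjusted p = 0.00153). Another 5 loci without a strand share the Dmc1 interval, of which 2 were higher past the threshold in both kinds of iPSC than in SSC and 3 did not pass in either, 1 of these with a lower mean in fiPSC (4.65 FPKM ± 3.29 against 6.62 ± 5.89 in SSC, SD, n = 3). In the order of levels Dmc1 moved from ninth of 10 in SSC to the third in SSCiPSC.

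The order of mean levels in SSC was Sycp3, Stag3, Sycp2, Sycp1, Smc1b, Tex11, Syce1, Hormad1, Dmc1 and Rec8. Neighbours in that order overlapped between libraries except at the steps from Syce1 to Hormad1 and from Hormad1 to Dmc1. In SSCiPSC the order was Stag3, Hormad1, Dmc1, Sycp3, Syce1, Smc1b, Sycp1, Tex11, Rec8 and Sycp2, and Sycp2 alone was apart from its neighbour. In fiPSC it was Stag3, Dmc1, Hormad1, Sycp3, Syce1, Smc1b, Rec8, Sycp1, Tex11 and Sycp2, with gaps between Hormad1 and Sycp3, between Smc1b and Rec8 and before Sycp2.

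Across the 10 genes, 2 were higher and 4 lower in SSCiPSC than in SSC past the threshold, and 4 did not pass, with 50.3% of all 36544 loci tested called (26.2% higher and 24.1% lower). The number called is thus near the background, and the results lie in which genes moved and by how much. The median log2 difference of the 10 genes was −0.73 against 0.11 over all loci tested. For 8 of the 10 genes no library of either group reached the other, against 59.8% of all loci, and an exact two-sided permutation test of 3 against 3 libraries cannot go below p = 0.1. All 10 genes passed the filter of 1 FPKM in 3 of 6 libraries in every comparison.

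Against the same SSC libraries, 3 of the 10 genes were higher and 6 lower in fiPSC and 1, Syce1, did not pass, with 51.8% of 38007 loci called (28.0% higher and 23.7% lower). Since both comparisons use the same SSC libraries, they are not independent of each other. The log2 differences were −4.68 for Sycp2 (adjusted p = 6.83e-05), −2.18 for Sycp1 (0.00117), −1.84 for Sycp3 (0.00115) and −1.72 for Tex11 (0.00139). Dmc1 was 4.96 times its mean in SSC (adjusted p = 0.000705), and Hormad1 rose by 1.41 on the log2 scale (adjusted p = 0.000592). For 9 genes no library of either group reached the other, while 61.6% of all loci had such groups. The median over the 10 genes was −0.89, against 0.17 over all loci.

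**Figure D2:**
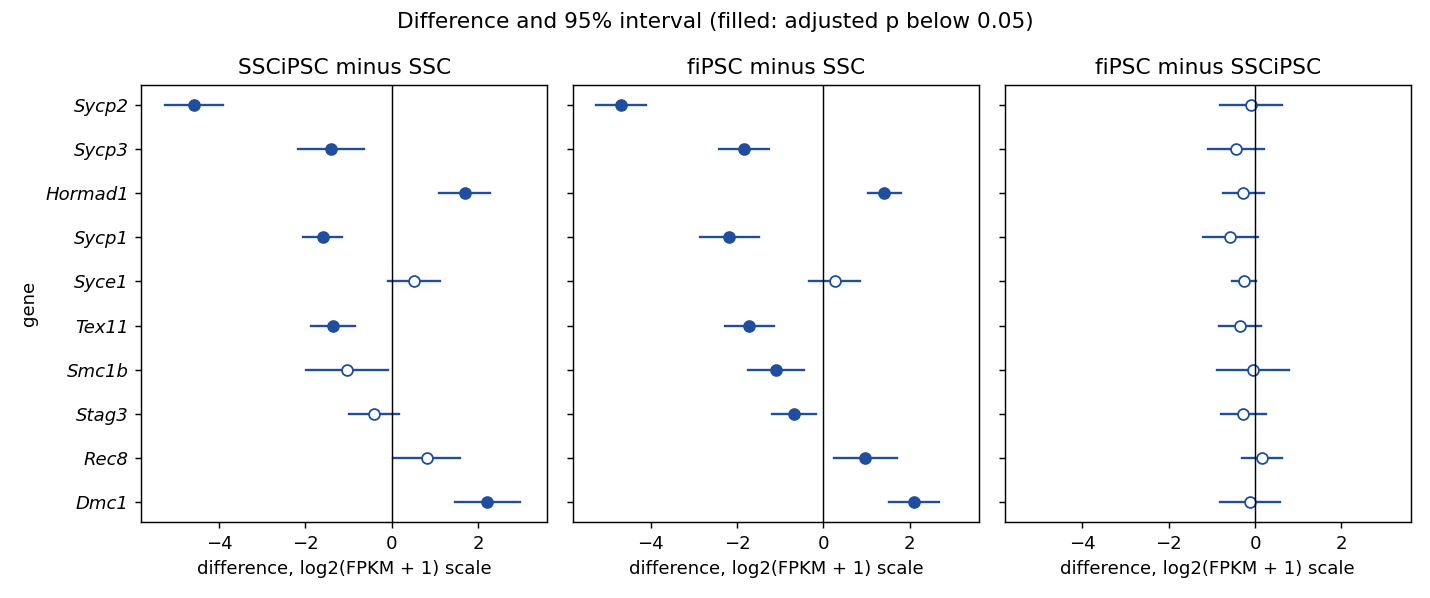
Difference between cell types for each of the 10 genes on the log2(FPKM + 1) scale, horizontal axis, with 95% intervals from limma as lines. Filled points passed an adjusted p of 0.05. Sycp2 lies at −4.59 and −4.68 in the first 2 panels, and every interval in the panel of fiPSC minus SSCiPSC includes 0.

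Between the 2 kinds of iPSC none of the 10 genes passed the threshold, and none had an unadjusted p under 0.05, against 3988 of all 33948 loci (11.7%). Of all loci, 0.0678% passed the threshold (0.0236% higher and 0.0442% lower in fiPSC). The fiPSC value was the lower for 9 of the 10 genes, with a median log2 difference of −0.26 against 0.01 over all loci. The difference for Sycp1 was −0.57 (95% interval −1.21 to 0.06), for Sycp2 −0.09 (−0.81 to 0.63) and for Dmc1 −0.11 (−0.80 to 0.57). Only Syce1 had groups that did not overlap, with a difference of −0.26 (−0.53 to 0.01, adjusted p = 0.441), and 18.6% of all loci had such groups. The intervals leave room for differences of the sizes given, so the test does not show that the iPSC act alike.

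The meiotic subunits were also set beside the paralogues that serve cohesin in dividing cells. Smc1a stood at a mean of 45.9 FPKM ± 2.72 (SD, n = 3) in SSC and 136 ± 3.29 in SSCiPSC, a log2 difference of 1.55 (adjusted p = 0.000166), at a locus shared with Hsd17b10. The ratio of Smc1b to Smc1a was 0.692 ± 0.206 in SSC, 0.115 ± 0.0530 in SSCiPSC and 0.118 ± 0.0272 in fiPSC, with no overlap between SSC and iPSC libraries. Rad21, the kleisin of dividing cells, exceeded Rec8 in every library, and the ratio of Rec8 to Rad21 was 0.0752 ± 0.0321 in SSC, 0.101 ± 0.0249 in SSCiPSC and 0.146 ± 0.0306 in fiPSC. Rad21l, the other meiotic kleisin, was at 6.34, 4.31 and 0.90 FPKM in SSC and at most 0.0900 FPKM in the SSCiPSC libraries, was listed at 0 in all fiPSC libraries, and did not enter the test.

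Stag3 exceeded Stag1 in every library, with ratios of 1.70 ± 0.149 in SSC, 1.83 ± 0.559 in SSCiPSC and 1.99 ± 0.346 in fiPSC that overlapped between groups. The ratio of Stag3 to Stag2 was 1.71 ± 0.339 in SSC and 0.957 ± 0.256 in SSCiPSC, where the groups did not overlap, and 0.703 ± 0.134 in fiPSC. Hormad1 and Hormad2 rose together, with ratios of 1.60 ± 0.603, 1.25 ± 0.156 and 0.978 ± 0.110 in the same order of groups.

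**Figure D3:**
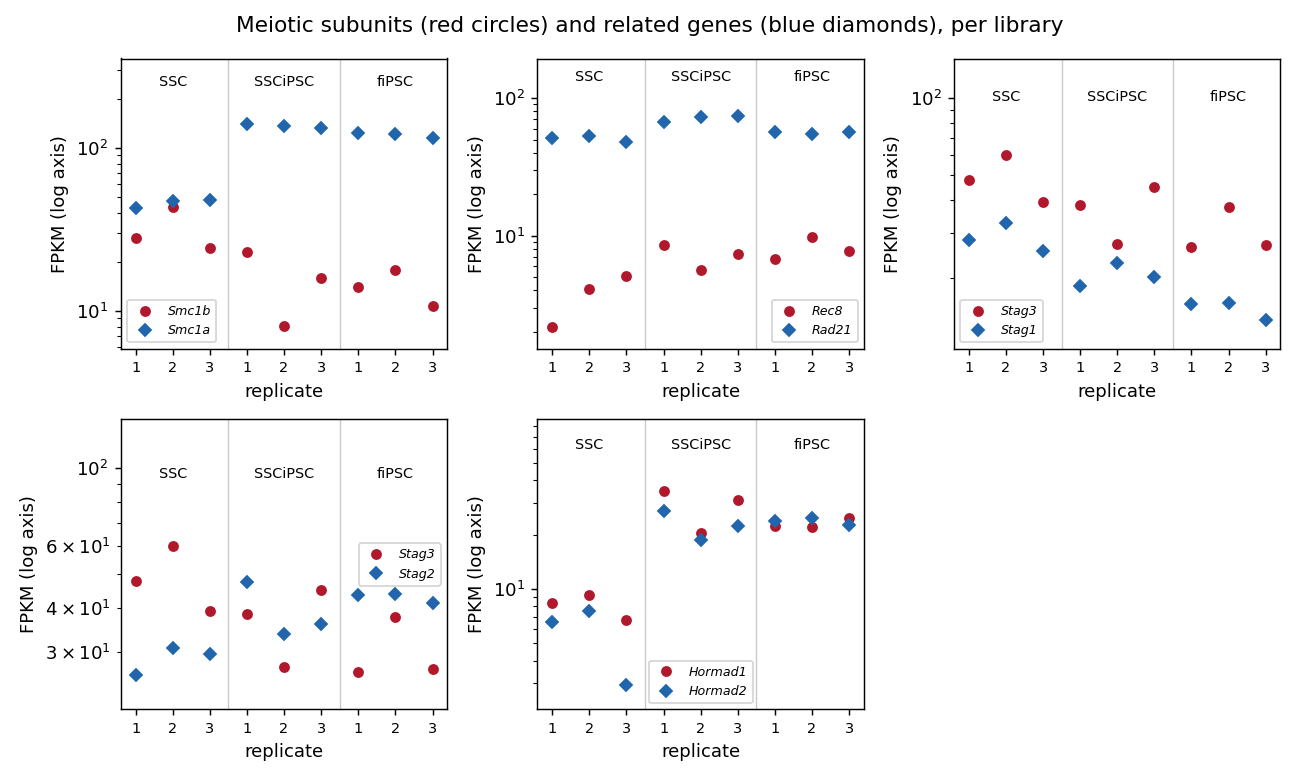
FPKM (log axis) of meiotic genes (red circles) and their relatives (blue diamonds) in each library, with replicates along the horizontal axis of each panel and vertical lines between SSC, SSCiPSC and fiPSC. Smc1b and Smc1a lie close in SSC (mean ratio 0.692) and apart in SSCiPSC (0.115), whereas Hormad1 and Hormad2 rise together.

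Other genes of the same processes were taken from 6 lists of 67 genes, of which 47 had a locus of their own and 45 were tested against SSC. In SSCiPSC, 18 were higher and 10 lower. This and the counts of each list that follow stand beside 26.2% of all loci called higher and 24.1% called lower. Of 5 other synaptonemal complex and axis genes tested, 3 were higher and 2 lower in SSCiPSC. Hormad2, an axis protein like Hormad1, rose by 1.89 (adjusted p = 0.00376), and Trip13, the ATPase that removes Hormad1 from axes, rose by 1.19 (adjusted p = 0.00597). The central element genes Tex12, at −2.97 (adjusted p = 0.000605), and Syce3, at −1.62 (adjusted p = 0.0278), fell. Syce2, a central element gene named here after its values were seen, rose by 1.09 (adjusted p = 0.0195), so the central element genes did not move one way.

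Of the 4 mitotic and shared cohesin subunits tested at a locus of their own, 2 were higher and 1 lower in SSCiPSC. Smc3, which is shared by mitotic and meiotic rings, was higher by 0.59 (adjusted p = 0.0046) and Rad21 by 0.48 (adjusted p = 0.0133), Stag1 was lower with a difference of −0.46 (adjusted p = 0.0490), and Stag2 differed by 0.42 (adjusted p = 0.0852). Of 10 genes for cohesin loading, release, protection and cleavage, 5 were higher and 1 lower. Esco2, which acetylates Smc3 in replicating cells, rose by 2.49 (adjusted p = 0.000741). Sgo1, a protector of centromeric cohesin, rose by 1.77 (adjusted p = 0.000248), Pds5a by 1.71 (adjusted p = 0.000231) and Espl1, the protease separase, by 1.34 (adjusted p = 0.00696).

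Of 9 meiotic recombination genes tested, 4 were higher and 3 lower in SSCiPSC. Mnd1, a cofactor of Dmc1, rose by 1.77 (adjusted p = 0.00955). Rnf212, a crossover factor, fell by 2.19 (adjusted p = 0.0163) and Tex15, a germ cell gene needed for loading of Dmc1, by 1.65 (adjusted p = 0.00152). Of 9 genes of meiotic entry and chromosome attachment, 1 was higher and 2 lower. Sohlh1, a spermatogonial transcription factor, was lower with a difference of −4.10 (adjusted p = 0.000299), Dazl, a germ cell RNA-binding protein, with −2.43 (adjusted p = 0.000199), and Sun1, a nuclear envelope anchor of telomeres, rose by 1.14 (adjusted p = 0.000913). Among 8 repressors of germ line genes, 3 were higher and 1 lower. Pcgf6 rose by 1.91 (adjusted p = 0.000447), L3mbtl2 by 1.73 (adjusted p = 0.00171) and Dnmt1, the maintenance DNA methyltransferase, by 1.03 (adjusted p = 0.00295), whereas E2f6 fell by 1.66 (adjusted p = 0.000583). In fiPSC against SSC, 21 of the 45 list genes were higher and 10 lower, with 28.0% of all loci called higher and 23.7% called lower. Between fiPSC and SSCiPSC none of 43 tested passed, with 5 at an unadjusted p under 0.05, where 11.7% of all loci were.

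The labelled cell types were set against marker genes. Gfra1, the receptor used for selection, was at 37.7, 34.1 and 23.9 FPKM in SSC and at most 0.17 FPKM in iPSC, and Nanog, a pluripotency factor, was listed at 0 in all SSC libraries. The SSC libraries also held RNA of testicular somatic cells. Sertoli cell markers with a locus of their own (6 of 8, led by Clu) summed to 1018, 1010 and 835 FPKM in the respective SSC libraries, and no iPSC library exceeded 7.74 FPKM. The 12 germ line markers, led by Dazl, summed to 643, 778 and 528 FPKM in SSC and to between 289 and 489 FPKM in iPSC, where Sall4, Etv5 and Kit, which pluripotent cells also express, made up much of the sum. Pluripotency markers (5 of 8, led by Nanog) summed to at most 5.37 FPKM in SSC and to between 881 and 1235 FPKM in iPSC. In SSC, Leydig cell markers (3 of 6, led by Cyp11a1) summed to 160, 124 and 236 FPKM, peritubular myoid markers (4 of 4, led by Acta2) to 85.8, 76.9 and 70.2 FPKM, macrophage markers (4 of 6, led by Mrc1 in each SSC library and by Cd68 over all libraries) to 25.4, 12.1 and 74.7 FPKM and fibroblast markers (6 of 6, led by Col3a1) to 89.8, 83.0 and 259 FPKM. The highest sums of these lists in an iPSC library were 0.358, 12.5, 14.1 and 38.1 FPKM. Within them, Des and Cnn1 (myoid), Cd68 and Adgre1 (macrophage) and Thy1 (fibroblast) overlapped between SSC and iPSC libraries. Des was at 2.89, 1.94 and 4.62 FPKM in SSC and from 3.59 to 8.86 FPKM in iPSC. Thy1 was at 0, 2.16 and 0.437 FPKM in SSC and from 1.56 to 6.23 FPKM in iPSC. The remaining markers counted in these lists were higher in every SSC library than in any iPSC library. No marker of the Sertoli, Leydig or macrophage lists was at 0 in an SSC library. Of 7 spermatocyte markers 1, Ldhc, had a locus of its own, at 2.07, 0.396 and 0 FPKM in SSC. Ldhc was no lower in most iPSC libraries, at 2.54, 3.55 and 2.14 FPKM in SSCiPSC and 2.19, 1.44 and 2.02 FPKM in fiPSC. In bulk RNA fewer cells of a type and less RNA per cell cannot be told apart, and the part of somatic RNA in the differences of the 10 genes from SSC was not tested.

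Among SSC libraries, replicate 2 was the highest for 8 of the 10 genes, and 33.6% of the loci tested between fiPSC and SSCiPSC were highest there. Replicate 2 had the highest germ line sum and the lowest Leydig, macrophage and fibroblast sums. Replicate 3 was the lowest for 6 of the 10, and 32.1% of the same loci were lowest there. It had the lowest germ line sum and the highest Leydig, macrophage and fibroblast sums. The Sertoli and peritubular myoid sums went otherwise, highest in replicate 1 and lowest in replicate 3. In these shares, loci with equal values, such as 0, were counted for the lower replicate number. Without SSC replicate 3, 7 genes passed in SSCiPSC against SSC, with Rec8 added, and 9 in fiPSC against SSC.

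The iPSC libraries also differed among themselves. SSCiPSC replicate 2 was the lowest of its group for 8 of the 10 genes (Sycp3, Syce1, Smc1b, Rec8, Stag3, Dmc1, Hormad1 and Tex11). Of the loci tested between fiPSC and SSCiPSC, 37.5% were lowest there. Sycp1 and Sycp2 were instead lowest in SSCiPSC replicate 1. In fiPSC, replicate 2 was the highest for 7 genes (34.8% of the same tested loci were highest there), and Sycp1, Sycp2 and Hormad1 were lowest in it.

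A gene that encodes an enzyme for new DNA methylation, Dnmt3b, was singled out after its values were seen. Its 5′ locus at chr2:153642015-153666095 was at 30.9, 84.9 and 33.2 FPKM in SSCiPSC replicates 1, 2 and 3 and at 116, 49.8 and 158 FPKM in fiPSC. It was highest in the SSCiPSC library where 8 of the 10 genes were lowest, and lowest in the fiPSC library where 7 were highest. That order is not particular to Dnmt3b. Of the 33948 loci tested, 6363 (18.7%) were highest in SSCiPSC replicate 2 and lowest in fiPSC replicate 2 of their groups, among them Dnmt3a, Dnmt1, L3mbtl2 and Pcgf6. The reverse order, that of 7 of the 10 genes, was held by 6103 loci (18.0%). A second Dnmt3b locus, shared with Dnmt3c, had the same order of libraries, with 19.4, 56.7 and 22.6 FPKM in SSCiPSC and 70.1, 34.3 and 97.4 FPKM in fiPSC. Over 6 libraries of 2 groups this is a description, and a relation between Dnmt3b and the genes was not tested.

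**Figure D4:**
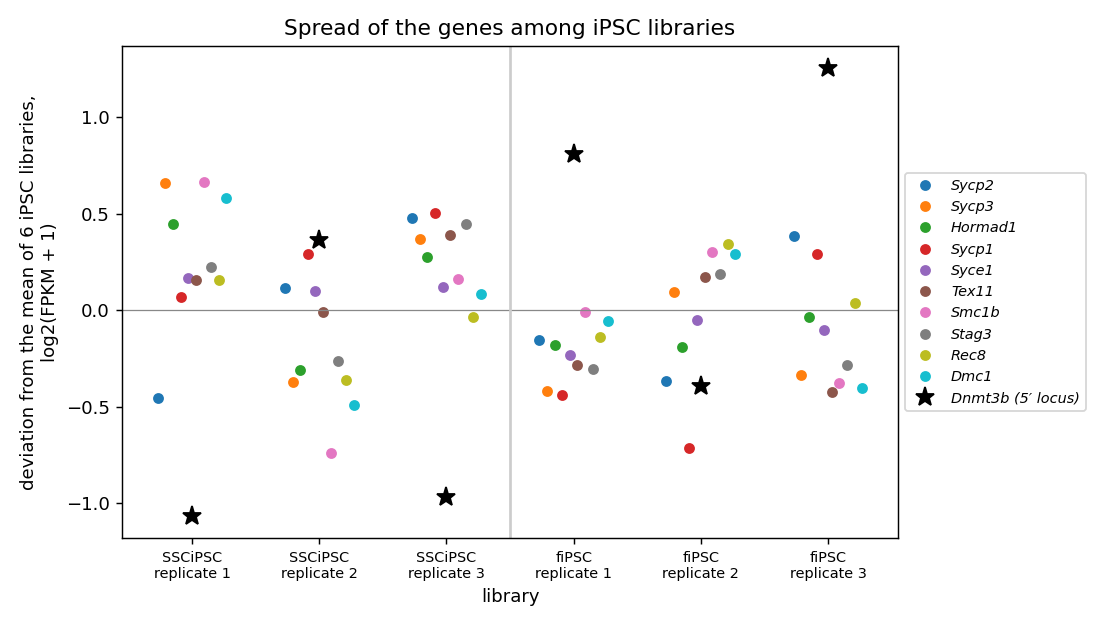
Deviation of each of the 10 genes (coloured points) and of the Dnmt3b 5′ locus (black stars) from its mean over the 6 iPSC libraries, in log2(FPKM + 1) units on the vertical axis, by library on the horizontal axis. In SSCiPSC replicate 2 the Dnmt3b star is the highest of the SSCiPSC stars while most genes are at their lowest of the group, and in fiPSC replicate 2 the star is the lowest.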

How the data were processed

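RNA-seq libraries of SSC, SSCiPSC and fiPSC (3 each, grouped by the labels) were compared. The authors deposited 1 table of FPKM values for 54914 loci (called RPKM in its header), made per the labels with Trimmomatic 0.32, TopHat2 2.0.9, Bowtie2 2.1.0, Cufflinks 2.2.1 and Cuffdiff. The labels name both a ribosomal RNA depletion kit and a stranded mRNA kit, while the study's methods name the latter, so how RNA was selected is unclear. The labels name mm9, but loci met GRCm38 genes on the same strand for 98.1% of those with both ends within 300 bp, so GENCODE genes of GRCm38 were used. A locus had to cover 50% of a gene and the gene 50% of the locus to count as its own, except the 10 genes. A locus without a value in 1 library was dropped, and a deposited summary of feature numbers was not used.

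Groups were compared in pairs with limma 3.58.1 (R 4.3.3, lmFit and eBayes with a trend) on log2(FPKM + 1), for loci with at least 1 FPKM in 3 of 6 libraries. P-values were adjusted by Benjamini and Hochberg, and 0.05 was the threshold. This scale understates changes of low genes. The scripts were tested on simulated data. Depth was estimated from the values of loci with a single fragment, and fragment numbers cover counting error only. The genes, lists and tests were chosen with earlier results of these data known. The text names all 10 genes, their paralogues and up to 4 genes per list with the largest change past the threshold. A gene that this rule names is not reported here.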

Additional observations from a re-analysis of the deposited data

How the results depend on the processing

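Other pseudocounts, filters, scalings, fits and loci left 6 to 8 of the 10 genes past the threshold in SSCiPSC against SSC (6 as reported) and 8 or 9 in fiPSC against SSC (9 as reported), and leaving out single libraries gave 6 to 7 and 6 to 9. Sycp1, Sycp2, Sycp3, Dmc1, Hormad1 and Tex11 passed against SSC under every setting tried. In SSCiPSC, Smc1b passed with quantile normalization, all 9 libraries in the fit or without SSCiPSC replicate 1, Rec8 with median-ratio scaling, all 9 libraries or without SSC replicate 3, and Stag3 with quantile normalization. Syce1 passed against SSC in both kinds of iPSC without SSC replicate 2. In fiPSC, Rec8, Smc1b and Stag3 lost the call without fiPSC replicate 1 or 3, Rec8 also without SSC replicate 2 or fiPSC replicate 2, and Stag3 also with median-ratio scaling, without a trend, or without SSC replicate 1 or 2. Between fiPSC and SSCiPSC, 0 of the 10 genes passed under any setting. Without single libraries the difference there ran from −0.34 to 0.12 for Sycp2, from −0.44 to 0.26 for Smc1b and from −0.39 to 0.15 for Dmc1, so it has no settled direction, and the cause was not tested. All loci past the threshold there numbered 23 as reported, 10 without a filter, 11 with all 9 libraries in the fit, 6 with the replicate block, and 6 to 20 without single libraries.

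Median-ratio scaling moved the median difference of all loci by 0.17 for SSCiPSC against SSC and 0.13 for fiPSC against SSC, and quantile normalization moved the latter by −0.13. The median of the 10 genes stayed negative, at −0.53 and −0.72 under median-ratio scaling. Replicate numbers did not pair the libraries: deviations of same-numbered SSC and SSCiPSC libraries correlated at −0.00191, 0.0267 and −0.00197 over loci, those of fiPSC and SSC at −0.00236, −0.0154 and −0.0206, and those of fiPSC and SSCiPSC at −0.0468, −0.244 and −0.0869, where differently numbered libraries reached 0.203. With the replicate block the counts were again 6, 9 and 0. The shallow SSC libraries limit the precision of Rec8, Dmc1 and Hormad1, and loci that share an interval, as Sycp3 does, may divide reads between genes.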
